A study of Mus musculus with 12 samples.

Results

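The 10 genes Fli1, Erg, Ets1, Ets2, Etv6, Elf1, Elf2, Elf4, Gabpa and Elk3, which encode transcription factors of the Ets family, were followed in PreMegEs, the progenitors in bone marrow that give rise to megakaryocytes and to erythroid cells. They were taken by gene name from the count table, and 10 of the 10 were found among its 41128 genes. PreMegEs were sorted from adult C57BL/6 mice of 12 to 16 weeks in 4 groups of 3 libraries, and each library pooled cells from 3 mice. WT PreMegEs came from wild type mice. P2- and P2+ PreMegEs came from mice heterozygous for the Runx1 P1-GFP::P2-hCD4/+ reporter allele and were separated by hCD4, which reports the activity of P2, the Runx1 promoter of the isoform RUNX1B. KO PreMegEs came from RUNX1C knockout mice, which lack the isoform made from the other promoter, P1. The study's methods call the libraries of a population biological replicates, and p-values measure the spread between these pools. The sources used here do not say whether the KO libraries were sequenced with the other 9, so a difference in handling and the genotype cannot be told apart.

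Ets factors share a DNA-binding domain that recognises a GGAA core, and several of them work beside RUNX1 and the GATA factors on megakaryocyte genes. Fli1 and Erg encode close relatives. Fli1 promotes the megakaryocytic fate and opposes Klf1, the erythroid factor, while Erg is required in stem cells and in platelet formation. Etv6 encodes a repressor needed by bone marrow stem cells, Gabpa the DNA-binding subunit of GABP, and Elk3 a partner of the serum response factor Srf. Ets1 and Ets2 are a pair of close relatives, as are Elf1, Elf2 and Elf4.

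The promoters of the Ets genes are shown first for 3 members whose levels differed between P2+ and P2- PreMegEs, and whose window holds no annotated exon. Of the 10 genes, 8 were found by name in the set of RefSeq promoter sequences used (GRCm38.p6), with 13 start sites in all. Fli1 and Ets1 were not found in that set. Each sequence is the 250 bases before the start site, 5′ to 3′ on the strand of the gene. Capitals mark the Ets motifs AGGAAG and CGGAAG, on either strand. The windows are Erg at chr16:95459349-95459598 (minus strand, the start nearest the 3′ end of the gene), Elk3 at chr10:93311160-93311409 (minus strand) and Etv6 at chr6:134035450-134035699 (plus strand).
Erg: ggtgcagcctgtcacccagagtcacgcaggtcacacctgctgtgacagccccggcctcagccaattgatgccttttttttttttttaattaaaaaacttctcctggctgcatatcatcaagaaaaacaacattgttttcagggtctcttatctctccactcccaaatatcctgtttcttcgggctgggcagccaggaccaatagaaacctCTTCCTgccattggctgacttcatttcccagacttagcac
Elk3: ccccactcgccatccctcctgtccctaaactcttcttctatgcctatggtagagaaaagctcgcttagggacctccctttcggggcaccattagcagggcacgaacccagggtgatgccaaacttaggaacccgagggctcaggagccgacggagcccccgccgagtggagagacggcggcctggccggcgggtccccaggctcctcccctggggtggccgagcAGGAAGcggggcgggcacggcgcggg
Etv6: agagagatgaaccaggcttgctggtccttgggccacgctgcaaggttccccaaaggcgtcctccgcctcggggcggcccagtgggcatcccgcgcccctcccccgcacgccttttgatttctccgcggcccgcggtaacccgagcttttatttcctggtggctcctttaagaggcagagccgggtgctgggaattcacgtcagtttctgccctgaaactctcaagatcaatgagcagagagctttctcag
The Erg window held 1 Ets motif, starting 40 bases before the start site, and the Elk3 window held 1, starting 26 bases before it. The Etv6 window held none, and the windows of the 2 other Erg start sites held no Ets, RUNX or GATA motif. Of the 13 windows of the members 5 held at least 1 Ets motif, as did 39.2% of all 32851 promoter windows of this length. The other 3 windows with one belonged to Elf2 with 5, Gabpa with 3 and Elf4 with 1. The RUNX motifs TGTGGT and TGCGGT were found in 1 member window, of Elf2, against 18.6% of all windows, and the GATA motifs AGATAA and TGATAA in 1, the Erg window above, against 16.6%.

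The members lie on 7 chromosomes in GRCm38. Fli1 (ENSMUSG00000016087, chromosome 9 from 32422204 to 32542861, minus strand) and Ets1 (ENSMUSG00000032035, chromosome 9 from 32636221 to 32757820, plus strand) lie 93.4 kb apart with 2 annotated genes between them, neither of them protein-coding. Erg (ENSMUSG00000040732, chromosome 16 from 95359169 to 95586593, minus strand) and Ets2 (ENSMUSG00000022895, chromosome 16 from 95702075 to 95721051, plus strand) lie 115.5 kb apart with no annotated gene between them. Gabpa (ENSMUSG00000008976) is on chromosome 16 from 84834925 to 84863779. Etv6 (ENSMUSG00000030199) is on chromosome 6 from 134035700 to 134270158, Elf1 (ENSMUSG00000036461) on chromosome 14 from 79481194 to 79582494, and Elf2 (ENSMUSG00000037174) on chromosome 3 from 51252720 to 51340663. Elf4 (ENSMUSG00000031103) is on chromosome X from 48411046 to 48463132 and Elk3 (ENSMUSG00000008398) on chromosome 10 from 93247414 to 93311135. The values below are counts over all exons of a gene, so its transcripts from different promoters are not told apart.

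The libraries held between 10726098 and 14445026 counts, and a count of 0 allows at most 3 counts, or 0.207 to 0.288 CPM (counts scaled to library size, with edgeR's TMM factors), for counting error only. Every member was above this in all 12 libraries. Replicate 2 of P2- and of P2+ PreMegEs stood apart, with 12100 and 7994 CPM summed over 8 immediate early genes, against 149 to 1155 CPM in the other 10 libraries. The PreMegE markers Kit, Slamf1, Gata1 and Gata2 summed to 1940 to 2514 CPM over all libraries, most of it Kit and Gata2. In KO against WT all 4 were called, with Slamf1 higher by 0.71 on the log2 scale (adjusted p = 7.51e-05), Gata1 and Kit higher and Gata2 lower, and in P2+ against P2- Gata1 and Kit were lower. As background, 6.18% of all genes tested were higher and 8.76% lower in KO against WT, and 20.1% and 17.0% in P2+ against P2-. Runx1, counted over both promoters together, had 357 to 387 CPM in WT, 203 to 216 in P2-, 613 to 659 in P2+ and 341 to 381 in KO PreMegEs. Its total therefore does not check the RUNX1C knockout label.

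Fli1, Erg, Ets1, Etv6, Elf1, Elk3 and Elf4 were higher in P2+ than in P2- PreMegEs, with rises from 1.20-fold in Elf4 to 4.79-fold in Ets1. These 7 of the 10 members were called higher and 0 were called lower at an adjusted p under 0.05 (edgeR's quasi-likelihood test, Benjamini-Hochberg over all genes tested). Of all 12836 genes tested, 20.1% were higher and 17.0% were lower. The 4 members that also rose at least 2-fold were Fli1, Erg, Ets1 and Etv6, against 9.54% of all genes. In none of the 6 comparisons did a member move against the direction of the called ones at an unadjusted p under 0.05, nor was one called so under any setting or tool run. The median log2 fold change was 0.74 over the 10 members and -0.02 over all genes.

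Fli1 had 96.0, 97.6 and 128 CPM in the P2- libraries and 386, 375 and 458 CPM in the P2+ libraries. The lowest P2+ library was well above the highest P2- library. The log2 fold change was 1.93 (SE 0.13), a 3.82-fold rise, with an adjusted p of 1.32e-05. Erg had 65.4, 68.2 and 77.8 CPM in P2- and 171, 192 and 183 CPM in P2+ PreMegEs, again without overlap. Its log2 fold change was 1.38 (SE 0.09), a 2.60-fold rise, with an adjusted p of 9.3e-06. Ets1 was the least abundant member, with 11.7, 7.59 and 6.99 CPM in P2- and 51.1, 36.6 and 37.1 CPM in P2+ PreMegEs. It had the largest fold change of the 10 (log2 2.26, SE 0.22, adjusted p = 9.22e-05) and the widest 95% interval, from 1.75 to 2.76.

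Etv6 was the most abundant member and also rose, from 470, 471 and 491 CPM in P2- to 1004, 1021 and 1118 CPM in P2+ PreMegEs. Its log2 fold change was 1.15 (SE 0.07, adjusted p = 7.74e-06). Elf1 rose from 424 to 435 CPM in the P2- libraries to 714 to 738 CPM in the P2+ libraries (log2 0.77, SE 0.07, adjusted p = 4.06e-05). Elk3 rose from 68.9 to 71.0 CPM to 107 to 122 CPM (log2 0.71, SE 0.08, adjusted p = 0.00015). The spread within each group was small beside these differences. Elf4 changed little, from 237 to 268 CPM to 280 to 321 CPM (log2 0.27, SE 0.09, adjusted p = 0.0369), and it missed the threshold under 7 of 14 alternative settings.

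**Figure D1:**
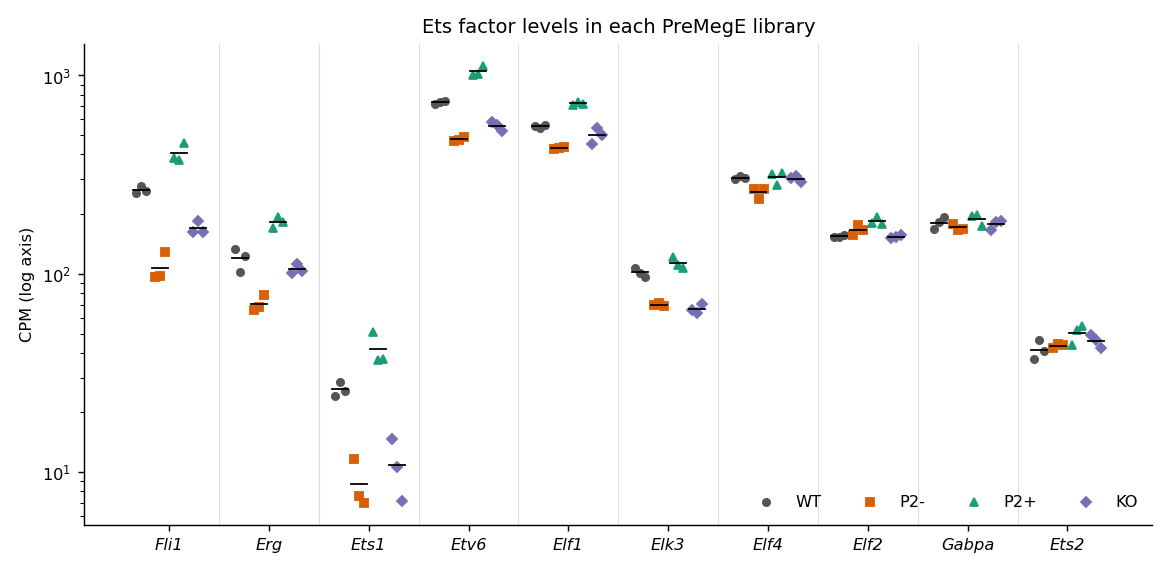
Levels of the 10 Ets genes in CPM (log axis) in each PreMegE library, with 3 points a group and a bar at the mean (grey circles WT, orange squares P2-, green triangles P2+, purple diamonds KO). Fli1, Erg, Ets1, Etv6 and Elf1 separate P2+ from all other groups, and Elf2 does so narrowly (at least 179 CPM against at most 175 CPM). Gabpa and Ets2 overlap between P2+ and P2-.

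Gabpa, Elf2 and Ets2 were not called. Gabpa had 166 to 179 CPM in P2- and 174 to 199 CPM in P2+ PreMegEs, and the 95% interval of its log2 fold change ran from -0.02 to 0.33. Elf2 had 156 to 175 CPM and 179 to 193 CPM, with an interval from -0.01 to 0.33. The libraries of P2- and P2+ with the same number deviated together, and in a fit with the replicate number as a block Elf2 (log2 0.16, adjusted p = 0.0282) and Gabpa (log2 0.16, adjusted p = 0.0383) passed the threshold, which made 9 members higher. In that fit 25.9% of all genes were higher, against 20.1% without the block. Ets2 had 42.3 to 44.2 CPM in P2- and 43.6 to 54.4 CPM in P2+ PreMegEs, with an interval from -0.03 to 0.47. It passed under none of the 14 settings tried. In these sorted pools fewer cells expressing a gene and less RNA of it per cell cannot be told apart.

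WT PreMegEs were not sorted by P2 and had mean levels of those 7 members between the ones of P2- and P2+. The labels give no sort by P2 for KO PreMegEs either. Against WT or KO, P2- and P2+ PreMegEs differ in genotype as well as in the sort by hCD4, and the effects of these cannot be told apart. In P2- PreMegEs 6 members were lower than in WT, namely Fli1, Erg, Ets1, Etv6, Elf1 and Elk3, and 0 were higher, where 9.60% of 12767 genes were lower and 6.85% were higher. The 3 WT libraries had 255, 279 and 261 CPM of Fli1, and 133, 103 and 123 CPM of Erg, all above the P2- libraries. Fli1 fell by 1.30 on the log2 scale (SE 0.11, adjusted p = 6.39e-05) and Erg fell by 0.76 (SE 0.11, adjusted p = 0.00115). Ets1 had 24.1, 28.6 and 25.6 CPM in WT and fell by 1.57 in P2- (SE 0.20, adjusted p = 0.000568). Fli1 and Ets1 were the 2 members at least 2-fold lower, as were 4.10% of all genes. Etv6 fell by 0.61 (SE 0.07, adjusted p = 0.000197), Elk3 by 0.54 (SE 0.08, adjusted p = 0.00113) and Elf1 by 0.36 (SE 0.07, adjusted p = 0.00495).

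In P2+ PreMegEs 6 members were higher than in WT and 0 were lower, where 9.45% of 12941 genes were higher and 7.07% were lower. Fli1 rose by 0.62 on the log2 scale (SE 0.09, adjusted p = 0.00112), Erg by 0.61 (SE 0.10, adjusted p = 0.00258) and Ets1 by 0.67 (SE 0.15, adjusted p = 0.0112). Etv6 rose by 0.52 (SE 0.06, adjusted p = 0.000362) and Elf1 by 0.39 (SE 0.06, adjusted p = 0.00151). The sixth, Elf2, had 153 to 158 CPM in WT and 179 to 193 CPM in P2+ (log2 0.25, SE 0.07, adjusted p = 0.0438), and it kept its call under 4 of 14 alternative settings. Leaving out replicate 2 of P2+ is counted more than once among these settings. No member was at least 2-fold higher, as 2.16% of all genes were. Elk3, with 96.5 to 107 CPM in WT and 107 to 122 CPM in P2+, was not called (log2 0.16, SE 0.08, adjusted p = 0.214). The P2- and P2+ comparisons share the WT libraries.

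Fli1, Ets1, Etv6 and Elk3 were lower in KO than in WT PreMegEs, while Erg and Elf1 did not pass the test. These were 4 members lower and 0 higher, where 8.76% of 12784 genes were lower and 6.18% were higher. Fli1 had 162, 184 and 162 CPM in the KO libraries against 255 to 279 CPM in WT, and fell by 0.65 on the log2 scale (SE 0.07, adjusted p = 3.18e-06). Ets1 had 14.8, 10.6 and 7.19 CPM and fell by 1.27 (SE 0.19, adjusted p = 0.000145). It was the 1 member at least 2-fold lower, as were 2.67% of all genes. Elk3 had 65.5, 63.3 and 70.4 CPM and fell by 0.62 (SE 0.08, adjusted p = 1.49e-05). Etv6 had 584, 565 and 523 CPM and fell by 0.40 (SE 0.06, adjusted p = 0.000147).

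Erg had 101, 112 and 104 CPM in KO and 103 to 133 CPM in WT PreMegEs, so the groups overlapped. Its log2 fold change was -0.19 (SE 0.09, adjusted p = 0.162), with a 95% interval from -0.37 to -0.01. Without replicate 2 of WT, the WT library with the lowest Erg, it passed the threshold (log2 -0.28, adjusted p = 0.0265). Elf1 had 454, 541 and 501 CPM in KO against 543 to 560 CPM in WT, with a log2 fold change of -0.16 (SE 0.07, adjusted p = 0.122). Without replicate 2 of KO, the KO library with the highest Elf1, it was called (log2 -0.22, adjusted p = 0.0499). Elf2, Elf4, Gabpa and Ets2 each differed from WT by at most 0.14 on the log2 scale and were not called.

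**Figure D2:**
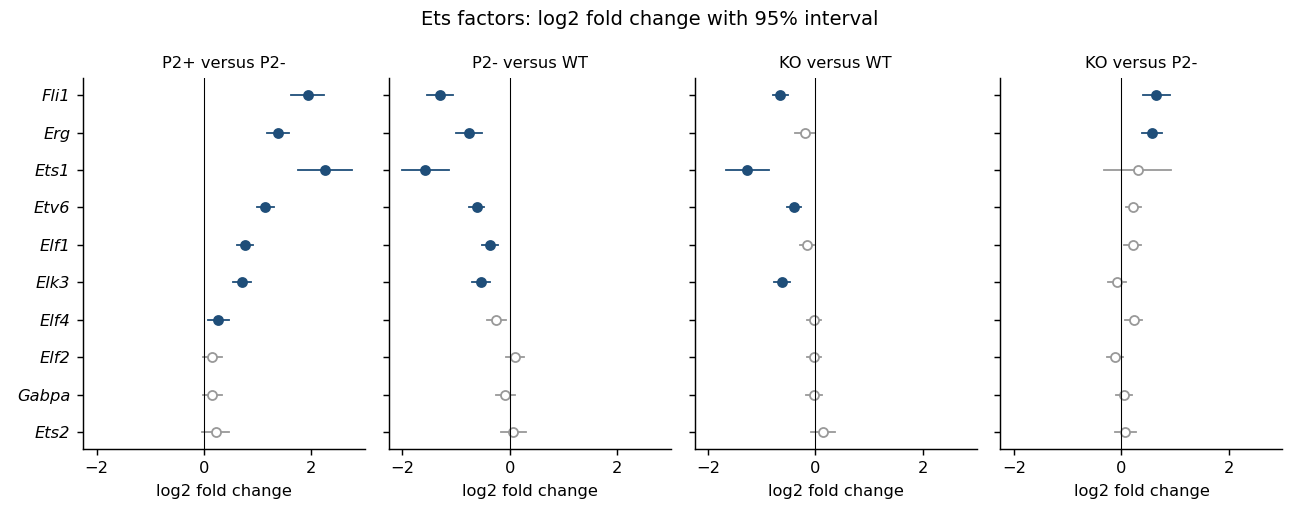
Log2 fold change of each Ets gene in 4 comparisons, with the 95% interval of edgeR's fit as a line; filled points passed an adjusted p under 0.05 and open points did not. Erg was called lower in P2- than in WT but not in KO against WT, and Fli1 and Erg were the 2 members called higher in KO than in P2-.

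KO PreMegEs had more Fli1 and Erg than P2- PreMegEs, and no other member was called, although 3 others (Etv6, Elf1 and Elf4) were higher at an unadjusted p under 0.05. These 2 of the 10 members were higher and 0 were lower, where 1.33% of 12588 genes were higher and 0.278% were lower. Fli1 was 1.57-fold higher (log2 0.65, SE 0.11, adjusted p = 0.0203) and Erg 1.49-fold higher (log2 0.58, SE 0.09, adjusted p = 0.00958). For both genes every KO library was above every P2- library. Neither reached 2-fold, as 0.437% of all genes did. The calls of both were lost without replicate 2 of KO (adjusted p = 0.111 for Fli1 and 0.0684 for Erg) and without replicate 3 of KO (0.0771 and 0.0544). That of Fli1 was also lost without replicate 1 of KO (adjusted p = 0.0924) or replicate 1 of P2- (adjusted p = 0.0597). Elk3 was at the P2- level in KO, with a 95% interval of the log2 difference from -0.25 to 0.09. For Ets1 the interval, from -0.32 to 0.93, was wide.

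Against P2+ PreMegEs, KO PreMegEs had less of 7 members (Fli1, Erg, Ets1, Etv6, Elf1, Elf2 and Elk3) and more of 0, where 20.6% of 12807 genes were lower and 16.4% were higher. The falls on the log2 scale ran from 0.28 in Elf2 (SE 0.07, adjusted p = 0.00923) to 1.95 in Ets1 (SE 0.23, adjusted p = 8.82e-05). Fli1 and Ets1 were the 2 at least 2-fold lower, as were 8.35% of all genes. Elf4, Gabpa and Ets2 were not called.

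The order of the mean levels was P2+, WT, KO and then P2- for Fli1, Erg, Ets1, Etv6, Elf1, Elf4 and Gabpa. For Fli1 each neighbour in this order differed by the test. For Erg the exception was WT and KO, and for Ets1 and Etv6 it was KO and P2-. For Elf1 only P2+ and WT differed among neighbours, and for Elf4 and Gabpa no neighbours did. Elk3 had the order P2+, WT, P2- and KO, in which only WT and P2- differed. The distance from the P2- to the P2+ mean of log2 CPM gives a scale on which the groups can be placed, as a description. On it the WT mean of Fli1 lay at 68.2% and the KO mean at 34.66%, those of Erg at 55.24% and 42.51%, and those of Ets1 at 71.0% and 12.6%. Elk3 lay at 77.9% in WT and at -10.84% in KO.

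Of these 2 pairs that lie close on a chromosome, Fli1 and Ets1 were called together in 5 of the 6 comparisons, while Erg was called without Ets2. The ratio of Ets1 to Fli1 counts was 0.0544 to 0.122 in P2- and 0.0811 to 0.133 in P2+ PreMegEs, which overlap, and 0.0948 to 0.103 in WT and 0.0443 to 0.0911 in KO PreMegEs, which do not. Erg and Ets2 did not keep their ratio. There were 1.54 to 1.78 Erg counts for each Ets2 count in P2-, 3.37 to 3.91 in P2+, 2.21 to 3.57 in WT and 2.04 to 2.47 in KO PreMegEs. The ratio was 2.25-fold higher in P2+ than in P2- PreMegEs. These 2 ratios were chosen after their values had been seen and are given without a test.

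The balance between the close relatives Fli1 and Erg moved with the groups too. Each WT library had 1.92 to 2.72 Fli1 counts for each Erg count, and each P2+ library 1.95 to 2.50. The P2- libraries had 1.43 to 1.65 and the KO libraries 1.56 to 1.64, both below every WT and P2+ library. The mean ratio was 1.39-fold lower in KO than in WT and 1.47-fold lower in P2- than in WT. Each of these differences had p = 0.1 in an exact two-sided permutation test, the smallest p that 3 libraries against 3 allow, and 0.15 after adjustment over the 6 pairs of groups. Between KO and P2- the ratios overlapped (exact permutation p = 0.4).

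Fli1 against Klf1, its erythroid opponent, spread the groups widest. The P2- libraries had 0.22, 0.276 and 0.341 Fli1 counts for each Klf1 count, the KO libraries 0.449, 0.485 and 0.432, the WT libraries 1.12, 1.27 and 1.08, and the P2+ libraries 6.62, 6.41 and 7.67. The 4 groups thus did not overlap. The ratio was 25.1-fold higher in P2+ than in P2- and 2.54-fold lower in KO than in WT. Both had p = 0.1, the smallest the exact permutation test allows, as did each of the 6 pairs of groups, and the value adjusted over these pairs was 0.1 too. Klf1 itself fell 6.56-fold from P2- to P2+ PreMegEs (log2 -2.71, SE 0.09, adjusted p = 1.31e-06). Against Gabpa, the member that moved little, Fli1 had 0.536 to 0.764 counts in P2-, 0.877 to 1.009 in KO, 1.35 to 1.53 in WT and 1.89 to 2.62 in P2+ PreMegEs.

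**Figure D3:**
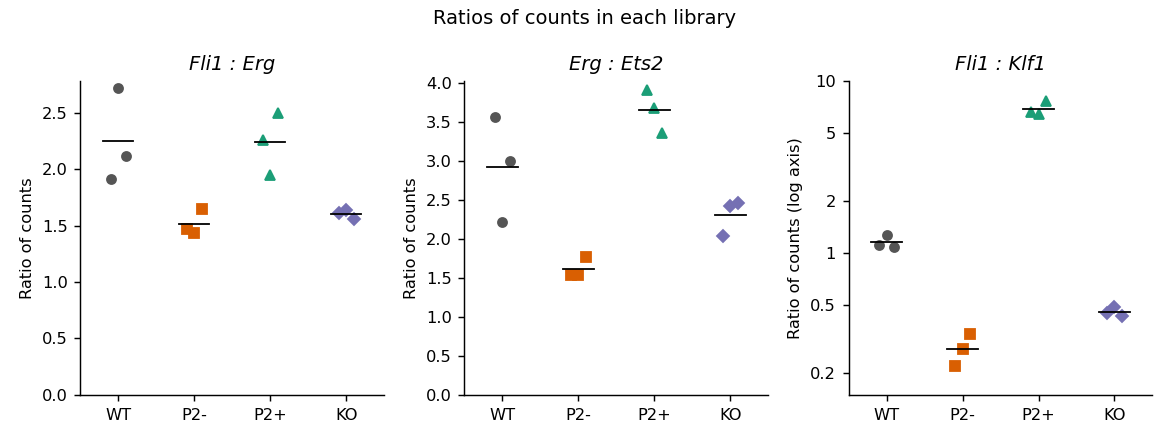
Ratio of the counts of Fli1 to Erg, Erg to Ets2 and Fli1 to Klf1 in each library (3 points a group, bar at the mean; linear axes from 0 for the first 2 panels, log axis for the last). The Fli1 to Erg ratio of P2- and KO libraries (1.43 to 1.65) lies below that of WT and P2+ libraries, and the Fli1 to Klf1 ratio is above 6 in P2+ and below 0.5 in P2- and KO.

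Per length, Etv6 and Elf1 were the most expressed members in P2-, WT and KO PreMegEs and Ets1 the least in every group. RPKM (CPM per kb of exonic length) of Etv6 was 122 ± 2.21 (SD, n = 3) in WT, 79.8 ± 1.96 in P2-, 175 ± 10.3 in P2+ and 93.2 ± 5.18 in KO PreMegEs. Fli1 had 75.9 ± 3.55, 30.8 ± 5.24, 117 ± 12.9 and 48.6 ± 3.58 RPKM in the same order, and Erg 34.5 ± 4.48, 20.3 ± 1.88, 52.5 ± 3.14 and 30.4 ± 1.68. Ets1 stayed between 1.03 ± 0.30 in P2- and 4.91 ± 0.97 RPKM in P2+ PreMegEs. The RPKM of the 10 genes summed to 441 to 449 in WT, 301 to 320 in P2-, 579 to 617 in P2+ and 358 to 382 in KO libraries, which did not overlap.

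Shares of this sum show how the make-up differed. Fli1 made up 9.97% ± 1.34 (SD, n = 3) of it in P2-, 13.2% ± 0.495 in KO, 17.1% ± 0.765 in WT and 19.6% ± 1.46 in P2+ PreMegEs. Etv6 had 25.9% ± 0.278, 25.4% ± 1.47, 27.5% ± 0.264 and 29.5% ± 0.674 in the same order. The share of Gabpa went the other way, from 9.79% ± 0.583 in P2- to 5.64% ± 0.578 in P2+, and so did that of Elf4, from 13.6% ± 0.731 to 8.42% ± 0.558. The counts of Gabpa and Elf4 did not fall, so these are shares of a larger sum. Without division by length Fli1 had 5.94% in P2- and 12.5% in P2+.

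**Figure D4:**
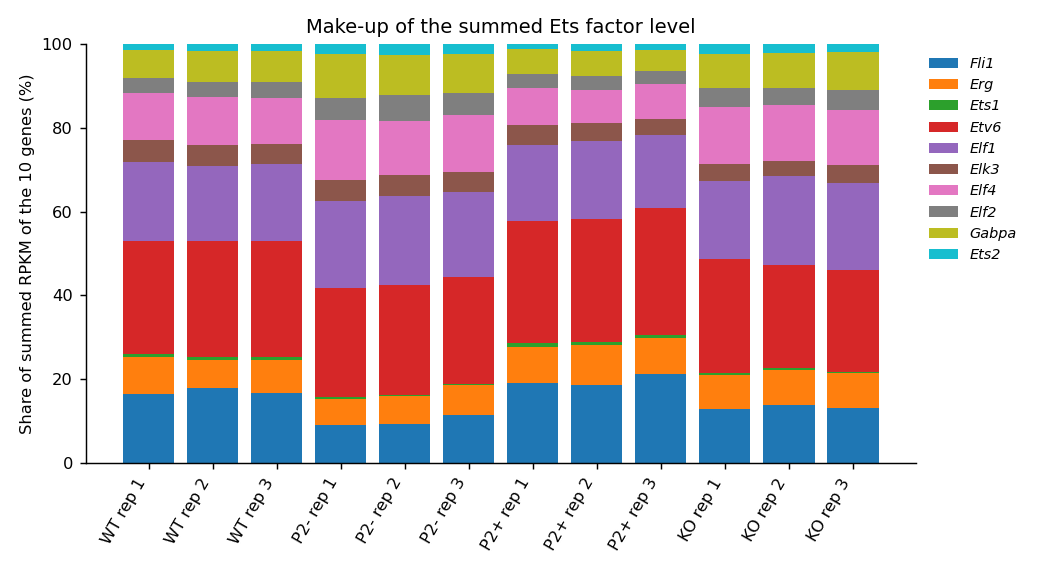
Share of each Ets gene in the summed RPKM of the 10 genes, in percent, as 1 stacked bar for each library. Fli1 (lowest segment) takes 9.08% to 11.5% in P2- and 18.5% to 21.3% in P2+ libraries, and Etv6 is the largest segment in each group.

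Of 16 further Ets family genes, 8 passed the filter on low counts in the comparison of P2+ and P2- PreMegEs, and 3 of these rose and 0 fell, where 20.1% of all genes rose and 17.0% fell. Spi1, the myeloid factor PU.1, rose from 19.1 to 22.4 CPM to 40.7 to 45.4 CPM (log2 1.07, SE 0.11, adjusted p = 0.000119). Etv3 (log2 0.28, SE 0.08, adjusted p = 0.029) and Etv5 (log2 0.45, SE 0.15, adjusted p = 0.0468) rose less. The edgeR exact test left 1 of these 3 calls, as did leaving out replicate 1 or replicate 3 of P2-. Against WT, Spi1 was lower in P2- (log2 -0.55, adjusted p = 0.0171) and in KO PreMegEs (log2 -0.46, adjusted p = 0.0122), and higher in P2+ (log2 0.51, adjusted p = 0.0129). In KO against WT, Elk1 was lower as well (log2 -0.47, adjusted p = 0.0194), which made 2 of the 8 lower and 0 higher, where 8.76% of all genes were lower and 6.18% higher. Elf3, Ehf, Spdef and Fev had no count in any library.

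Of the 12 partners of Ets factors, 5 rose and 2 fell in P2+ against P2- PreMegEs, where 20.1% of all genes rose and 17.0% fell. Gabpb1, which joins Gabpa in GABP, had 75.4 to 78.9 CPM in P2- and 135 to 149 CPM in P2+ PreMegEs (log2 0.86, SE 0.07, adjusted p = 3.87e-05). Gabpa itself was not called, except in the fit with a replicate block (log2 0.16, adjusted p = 0.0383). Mkl1 (log2 0.83, SE 0.12, adjusted p = 0.000954) and Mkl2 (log2 0.44, SE 0.14, adjusted p = 0.0348), coactivators of Srf, rose as well, and so did Runx1 and Lmo2. Gata1 fell by 0.54 (SE 0.08, adjusted p = 0.000894), and so did Ldb1 by 1.504 (SE 0.11, adjusted p = 1.54e-05). Srf, the partner of Elk3, had 76.7 to 122 CPM in P2- and 82.3 to 114 CPM in P2+ and was not called (log2 0.02, SE 0.18, adjusted p = 0.952). In KO against WT, 4 partners were higher and 3 lower, where 6.18% of all genes were higher and 8.76% lower. Lyl1 rose by 0.92 on the log2 scale (SE 0.07, adjusted p = 3.55e-08), Ldb1 by 0.31 (SE 0.07, adjusted p = 0.00637), Gata1 by 0.27 (SE 0.06, adjusted p = 0.00407) and Gabpb2, the other partner of Gabpa, by 0.20 (SE 0.06, adjusted p = 0.027). Gabpb1 fell by 0.34 (SE 0.07, adjusted p = 0.0023), Mkl1 by 0.37 (SE 0.09, adjusted p = 0.00656) and Gata2 by 0.19 (SE 0.06, adjusted p = 0.0397).

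Of 8 megakaryocyte genes known as targets of Ets factors, 7 were tested, and 6 rose and 0 fell in P2+ against P2- PreMegEs, where 20.1% of all genes rose and 17.0% fell. Itga2b, which encodes CD41, rose by 2.48 on the log2 scale (SE 0.17, adjusted p = 1.22e-05). CD41 is an antigen that the study's PreMegE gate excludes. Pf4, a platelet chemokine, rose by 4.06 (SE 0.32, adjusted p = 2.5e-05). The list median was 2.17, against -0.02 over all genes. In KO against P2- 6 of the 7 were higher, against 1.33% of all genes, and 3 were when any one KO library was left out. Their median log2 fold change was 1.17, against -0.01 over all genes. A link between these genes and the Ets members was not tested, and the list was chosen with earlier results of these data known.

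Against WT, 6 targets were lower and 0 higher in P2- PreMegEs, where 9.60% of all genes were lower and 6.85% higher. In P2+ PreMegEs 4 were higher than in WT (Itga2b, Gp1ba, Gp5 and Gp9) and 1 lower, where 9.45% of all genes were higher and 7.07% lower. The lower one was Ppbp, another platelet chemokine, which was 2.42-fold lower (log2 -1.27, SE 0.24, adjusted p = 0.00472), and Pf4 was not called (log2 -0.03, SE 0.19, adjusted p = 0.946). In KO against P2+ 6 were lower and 1 higher, where 20.6% of all genes were lower and 16.4% higher, and the higher one was again Ppbp (log2 1.96, SE 0.25, adjusted p = 0.000166).

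In KO against WT, 3 targets were lower and 2 higher (2 and 1 in a fit of all 12 libraries), where 8.76% of all genes were lower and 6.18% higher. Pf4 fell by 2.14 (SE 0.12, adjusted p = 1.45e-09), Gp1bb by 1.35 (SE 0.14, adjusted p = 2.66e-06) and Itga2b by 0.45 (SE 0.08, adjusted p = 0.000529). Gp5, a subunit of the platelet receptor for von Willebrand factor, rose by 0.39 (SE 0.07, adjusted p = 0.000961), and Ppbp by 0.70 (SE 0.22, adjusted p = 0.0374). Gp1ba and Gp9, which belong to the same receptor as Gp5 and Gp1bb, were not called.

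**Figure D5:**
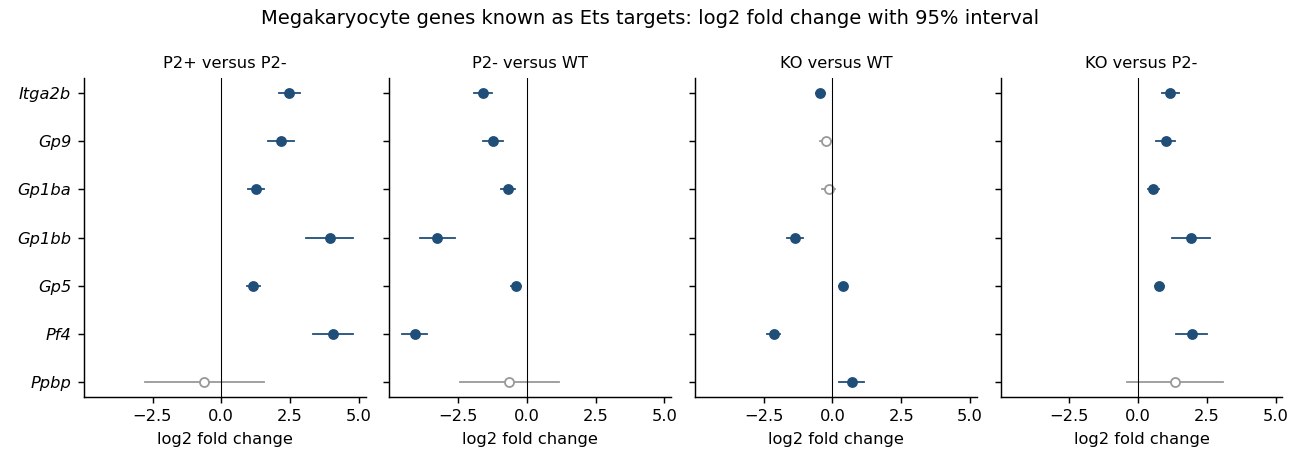
Log2 fold change of the 7 tested megakaryocyte genes known as Ets targets in 4 comparisons, with the 95% interval of edgeR's fit as a line; filled points passed an adjusted p under 0.05. In P2+ against P2- and in KO against P2-, 6 of the 7 were higher, while in KO against WT 3 were lower (Pf4, Gp1bb and Itga2b) and 2 higher (Gp5 and Ppbp).

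Over all 12 libraries and 13272 genes, the genes whose pattern was most like that of Fli1 were Tmem176b, Cpd, Plcg2, Bin2 and Pear1, with root mean square differences of centred log2 CPM of 0.0953 to 0.147. Those most like Erg were Tek, Arhgap31, Emilin1, H1fx and Lrmp, at 0.0927 to 0.132. Tek, the angiopoietin receptor, had 24.2 ± 2.45 (SD, n = 3) CPM in P2-, 34.5 ± 4.08 in KO, 37.7 ± 3.44 in WT and 63.2 ± 8.89 in P2+ PreMegEs. Among the other members Erg was nearest to Fli1, at 0.293, followed by Etv6 at 0.324 and Ets1 at 0.449, and Elf2 was farthest, at 0.689. These are descriptions over libraries that share their groups.

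Markers of erythroid, other blood and vessel cells moved with the groups as well, and since Fli1, Erg and Ets1 are also used by such cells the values are given here. As background, P2+ against P2- called 20.1% of all tested genes higher and 17.0% lower, and KO against WT 6.18% higher and 8.76% lower. The 10 erythroid genes, Klf1 among them, summed to 1971 to 2426 CPM in P2-, 1926 to 2158 in KO, 1202 to 1349 in WT and 203 to 323 in P2+ PreMegEs. Of the 9 tested, 7 were lower in P2+ than in P2-, 7 were higher in P2- than in WT (against 6.85% of all genes) and 6 were higher in KO than in WT. In KO against P2- 0 were called, and 2 (Car1 and Tfrc) were lower at an unadjusted p under 0.05. Ermap, a red cell membrane protein, had 729 to 994 CPM in P2-, 788 to 920 in KO, 372 to 491 in WT and 10.2 to 33.8 in P2+ PreMegEs. The 6 endothelial markers summed to 24.8 to 35.1 CPM in P2-, 39.4 to 44.7 in KO, 46.9 to 50.2 in WT and 66.9 to 90.8 in P2+ PreMegEs, of which Tek was the largest part. The 4 tested were all at least 2-fold higher in P2+ than in P2-, namely Tek (log2 1.39, adjusted p = 8.18e-05), Kdr (log2 1.72, adjusted p = 0.016), Emcn (log2 2.84, adjusted p = 0.00506) and Robo4 (log2 1.87, adjusted p = 0.0245), and 0 of 3 were called in KO against WT, where 1, Kdr, was lower at an unadjusted p under 0.05. Cdh5, which defines endothelium, was too low to be tested and stayed at or below 0.624 CPM in every library. The 8 T and NK cell markers summed to 91.4 to 128 CPM in P2-, 100.4 to 105 in KO, 224 to 239 in WT and 180 to 265 in P2+ PreMegEs, nearly all of it Nkg7. The 3 tested were all higher in P2+ than in P2-, namely Nkg7 (log2 0.97, adjusted p = 0.00188), Lck (log2 1.59, adjusted p = 0.0157) and Thy1 (log2 3.65, adjusted p = 6.31e-05), and 1 of 4, Nkg7, was lower in KO than in WT. Cd3d and Cd3e stayed at or below 0.591 CPM and Cd3g had no count in any library. Cd247, too low to be tested in P2+ against P2-, went the other way, with 0.276 to 0.503 CPM in P2+ and 0.576 to 1.55 CPM in P2-. The 6 B cell markers summed to 9.22 to 11.9 CPM in P2-, 13.2 to 17.7 in KO, 17.95 to 30.45 in WT and 24.5 to 45.0 in P2+ PreMegEs, with 3 of 4 higher in P2+ than in P2- and 1 of 4 lower in KO than in WT. The 8 neutrophil and monocyte markers summed to 26.5 to 61.3 CPM in P2-, 30.5 to 68.9 in KO, 85.4 to 208 in WT and 112 to 263 in P2+ PreMegEs, with 5 of 8 higher in P2+ than in P2- and 5 of 6 lower in KO than in WT. The 6 mast cell and basophil markers summed to 24.5 to 28.3 CPM in P2-, 47.3 to 64.2 in KO, 27.9 to 47.9 in WT and 84.3 to 137 in P2+ PreMegEs, with 3 of 3 higher in P2+ than in P2- and 2 of 2 higher in KO than in WT. Fcer1a, Prss34 and Gzmb, too low to be tested in KO against WT, went the other way. In WT they had 0.947 to 7.21, 0.253 to 0.801 and 0.51 to 0.97 CPM. In KO Fcer1a had at most 0.257 CPM, and Prss34 and Gzmb had no count. The antibody panel that the study lists for PreMegEs holds a lineage cocktail against T, B, myeloid and erythroid surface antigens (CD3e, B220, Gr1, CD11b and Ter119 among them), with Sca1, CD16/32 and Endoglin, and cells with the lineage antigens are gated out in such a sort. It also holds CD41, CD150 and cKit, which Itga2b, Slamf1 and Kit encode. The study describes PreMegEs as positive for cKit and CD150 and as negative for CD41, CD16/32 and Endoglin. RNA of Itga2b, Slamf1 and Kit was thus measured in cells selected by the surface proteins of these genes. The part of other cells in the Ets levels was not tested.

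Of the members, 5 share exonic bases with a gene on the other strand (Elf1 with Wbp4, Elf2 with 4930577N17Rik, Elk3 with Cdk17, Etv6 with Gm17089 and Gabpa with Atp5j), over 2.26% to 6.98% of the member's exonic length. The sources used here do not say whether strand was used in counting, and of these partners 1 was called in 1 comparison. 4930577N17Rik, with 2.21 to 3.31 CPM in P2+ and 0.941 to 1.66 CPM in KO PreMegEs, was lower in KO than in P2+ (log2 -1.30, adjusted p = 0.0228), where Elf2 was called lower too, from 179 to 193 CPM to 151 to 156 CPM. Gm17089 was too low to be tested.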

How the data were processed

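Poly(A) libraries made with a strand-specific kit were sequenced from paired ends. The authors used Bowtie2 to map the reads to GRCm38 and featureCounts to count those on each Ensembl gene, and deposited the raw whole-number counts. Here CPM values were computed with TMM scaling over the 12 libraries, and RPKM with the exonic length in GENCODE vM21, which is on the same build. Each of 6 comparisons was fitted on its own 6 libraries with edgeR 4.0.16 in R 4.3.3 (quasi-likelihood F-test with group as the only factor, a minimum of 1 CPM in 3 or more libraries, Benjamini-Hochberg adjustment over all genes tested), and a gene was called at an adjusted p under 0.05. The fit was tested on simulated data. Ratios of counts were compared with an exact two-sided permutation test. The genes and lists were chosen with earlier results of these data known. The text names the 10 members, genes of those lists and the 5 genes most like Fli1 and the 5 most like Erg. Libraries of P2+ and P2- with the same number deviated together (correlations of deviations across genes 0.386, 0.572 and 0.405), so the numbers were taken to pair these samples, and those of other comparisons were not. Neither the main fit nor the permutation test used this pairing, and only the fit with a replicate block did. DESeq2 1.42.0, edgeR's exact test, other filters and scalings, all 12 libraries in one fit, a replicate block and leaving out libraries were tried. Proteins were not used here, and 1 gene of the lists is not reported here.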

Additional observations from a re-analysis of the deposited data

How the results depend on the processing

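Of the 60 values (10 members in 6 comparisons) 32 were called, and 26 of these kept their direction and their call under every setting run, among them all calls of Fli1, Erg and Ets1 outside the comparison of KO and P2- except that of Ets1 in P2+ against WT. None of the 32 changed direction. The 6 with a lost call were Elf4 in P2+ against P2-, Ets1 (adjusted p = 0.0563 without replicate 1 of WT) and Elf2 in P2+ against WT, Elf1 in P2- against WT (adjusted p = 0.0631 in the edgeR exact test), and Fli1 and Erg in KO against P2-. Asking for at least 2-fold left 4 of the 7 members in P2+ against P2-, 0 of 6 in P2+ against WT, 2 of 6 in P2- against WT, 1 of 4 in KO against WT, 0 of 2 in KO against P2- and 2 of 7 in KO against P2+. Leaving out 1 library at a time gave 6 to 7 members in P2+ against P2-, 4 to 5 in P2+ against WT, 6 in P2- against WT, 4 to 5 in KO against WT, 0 to 2 in KO against P2- and 7 in KO against P2+. The fit with a replicate block called 9, 5, 6, 4, 2 and 7 members in the same order, and beside Elf2 and Gabpa in P2+ against P2- it changed only the call of Elf2 in P2+ against WT (adjusted p = 0.0747). Leaving out replicate 2 of both P2- and P2+, with high immediate early genes, called 7 members in P2+ against P2- and 5 in P2+ against WT.

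A few values near 0, none of them called, changed sign when 1 library was left out. Elf4 in P2+ against WT was 0.01 on the log2 scale and became -0.0083 without replicate 1 of WT, -0.017 without replicate 1 of P2+ and -0.029 without replicate 3 of P2+, with 0.065 as the highest value when 1 library was left out. Elf4 in KO against WT ran from -0.051 to 0.0037 (without replicate 3 of KO), Ets2 in P2- against WT from -0.011 (without replicate 1 of WT) to 0.15, and Gabpa in KO against WT from -0.088 to 0.013 without replicate 3 of WT and 0.016 without replicate 1 of KO. The causes of these changes were not tested.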
